A study of Caenorhabditis elegans with 2 samples.

Results

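Regions near small noncoding RNA genes were taken from a chromatin immunoprecipitation sequencing (ChIP-seq) study of eGFP-tagged FOS-1 in whole L4 larvae of Caenorhabditis elegans. A region of the replicate 1 list was included when its summit lay within 500 bp of a gene annotated as tRNA, snoRNA or snRNA. The rule found 513 of 30000 regions, of which 264 were nearest to a tRNA gene, 196 to a snoRNA gene and 53 to a snRNA gene. All animals carried the unc-119(ed3) allele and the wgIs304 insertion (strain OP304), were of mixed sex, and came as 2 biological replicates of 1 group. The labels give no promoter for the tagged fos-1 gene and no age, and whole animals were used, so the cells behind a region cannot be told apart. No second group was available and no test between conditions could be made. The lists hold no read counts, so the depth behind a region is unknown.

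Transfer RNAs carry amino acids to the ribosome, and their genes are transcribed by RNA polymerase III from control elements inside the gene, the A box and the B box. Small nucleolar RNAs (snoRNAs) guide chemical modification of ribosomal and other RNAs, and many lie in introns of protein-coding host genes. Small nuclear RNAs (snRNAs) form the cores of the spliceosome, and in nematodes the annotation class also holds the spliced leader RNAs. A spliced leader RNA donates its first bases to the 5' end of other messenger RNAs by trans-splicing: SL1 to most such messages and SL2 to genes that lie downstream in operons. The fos-1 gene encodes a basic leucine zipper (bZIP) factor of the Fos family, whose mammalian members pair with Jun proteins on AP-1 sites.

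The stretches that follow are on build ce11 (WBcel235) and belong to regions described below or to genes set beside them. The first set gives 70 bases upstream of 6 SL2 RNA (sls-2) genes and the 22 bases of each leader. Genes with a strong region (sls-2.1, sls-2.2, sls-2.3 and sls-2.8) are set beside genes with none in either replicate list (sls-2.12 and sls-2.15). The replicate 1 summits at sls-2.2 and sls-2.8 lay 144 and 149 bp downstream of the leader's first base, outside the bases printed. Capitals mark stretches of 10 or more bases that sls-2.1, sls-2.2 and sls-2.3 share upstream of the leader.
sls-2.1 (chrII:5844795-5844886, plus strand): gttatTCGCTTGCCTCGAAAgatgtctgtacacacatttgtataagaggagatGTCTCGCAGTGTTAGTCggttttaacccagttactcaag
sls-2.2 (chrII:5543528-5543619, plus strand): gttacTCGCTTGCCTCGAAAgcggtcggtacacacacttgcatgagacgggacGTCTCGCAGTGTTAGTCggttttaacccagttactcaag
sls-2.3 (chrII:5544252-5544343, minus strand): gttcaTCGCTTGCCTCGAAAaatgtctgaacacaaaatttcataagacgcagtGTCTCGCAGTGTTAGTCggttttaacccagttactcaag
sls-2.8 (chrIII:12250395-12250486, plus strand): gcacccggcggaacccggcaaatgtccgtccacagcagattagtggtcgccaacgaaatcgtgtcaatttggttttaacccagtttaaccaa
sls-2.12 (chrIV:5261843-5261934, plus strand): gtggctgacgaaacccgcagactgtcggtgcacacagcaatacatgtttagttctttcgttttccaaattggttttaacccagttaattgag
sls-2.15 (chrIII:11090940-11091031, plus strand): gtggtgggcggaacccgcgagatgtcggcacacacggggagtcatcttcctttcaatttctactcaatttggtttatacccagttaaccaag

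The 17-base stretch ends directly before the leader, at -17 to -1 from the 5' end, and occurs 3 times in the genome, once before each of these 3 genes. The 15-base stretch lies at -65 to -51 and occurs 4 times in the genome, the fourth copy being upstream of sls-2.4. Neither stretch was found upstream of sls-2.8, which also had a strong region. The same first 22 bases were shared by sls-2.1, sls-2.2, sls-2.3 and sls-2.4, that is 4 of 18 sls-2 genes.

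The second set gives the strongest region at each of 2 tRNA genes and at 2 snoRNA genes hosted by ribosomal protein genes, as 101 bases centred on the summit, all on the plus strand. They are shown because their summits lay beside the small RNA gene and not in it.
C18A11.t2 (chrX:8036355-8036455): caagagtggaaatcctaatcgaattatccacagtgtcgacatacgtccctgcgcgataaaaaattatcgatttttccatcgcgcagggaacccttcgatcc
R04A9.t1 (chrX:410099-410199): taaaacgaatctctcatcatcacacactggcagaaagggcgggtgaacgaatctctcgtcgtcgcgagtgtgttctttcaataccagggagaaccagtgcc
F54E7.10 (chrIII:5679067-5679167): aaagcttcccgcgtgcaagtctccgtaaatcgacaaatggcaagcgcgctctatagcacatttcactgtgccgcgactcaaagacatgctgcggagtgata
Y24D9A.9 (chrIV:4390618-4390718): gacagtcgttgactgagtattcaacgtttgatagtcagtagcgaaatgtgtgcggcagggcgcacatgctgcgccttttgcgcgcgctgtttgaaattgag

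The third set shows the 2 motifs searched. The first is the tRNA-Val gene F35A5.t1, with the B box core GGTTCGA in capitals, and the second is 201 bases around the summit of the snoRNA region at C34E11.20, with its AP-1 site (TGACTCA or its reverse complement TGAGTCA) in capitals. Both were chosen after their values were seen.
F35A5.t1 (chrX:3793564-3793636, minus strand): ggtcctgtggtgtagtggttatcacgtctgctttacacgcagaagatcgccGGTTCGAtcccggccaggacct
C34E11.20 (chrX:11791594-11791794, plus strand): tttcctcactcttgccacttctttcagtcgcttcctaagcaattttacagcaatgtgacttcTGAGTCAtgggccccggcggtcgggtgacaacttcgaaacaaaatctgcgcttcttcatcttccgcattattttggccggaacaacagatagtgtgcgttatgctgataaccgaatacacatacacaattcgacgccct

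Regions were denser around small RNA genes than over the whole genome. The windows of 500 bp around the 1087 nuclear tRNA, snoRNA and snRNA genes cover 1.08% of the nuclear genome and held 1.71% of the replicate 1 list. That is 47.6 regions per 100 kb around small RNA genes, against 29.9 per 100 kb over the whole nuclear genome. The windows of the snoRNA genes held 52.9 per 100 kb, those of the tRNA genes 46.3 and those of the snRNA genes 40.6, while 43.8 were found around miRNA genes and 35.3 around the 5' ends of protein-coding genes. In the replicate 2 list the density was 39.2 per 100 kb around small RNA genes, against 29.2 over the genome. In the set thresholded by the irreproducible discovery rate (IDR, which keeps regions that the replicates rank alike), 16 of 248 peaks (6.45%) lay at small RNA genes, which is 1.48 per 100 kb, against 0.247 over the genome. No test was made of these densities.

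The strongest regions held the largest share. Of the 100 regions of highest signal in replicate 1, 12 lay at small RNA genes (12%, exact 95% interval 6.36 to 20.0), against 124 of the 10000 lowest (1.24%, 1.03 to 1.48). The signal is the authors' own value per region and its scale is not given, so it was used to rank regions within a list. In replicate 2, 7 of the 83 nuclear regions among the top 100 lay at small RNA genes (8.43%, 3.46 to 16.6), against 117 of the 9345 lowest (1.25%, 1.04 to 1.50). The share did not fall evenly with rank in replicate 2: ranks 101 to 248 held 2 of 147 (1.36%, 0.165 to 4.83) and ranks 249 to 1000 held 22 of 752 (2.93%, 1.84 to 4.40). The intervals are exact Clopper-Pearson intervals and cover counting error only, and regions side by side are not independent.

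**Figure D1:**
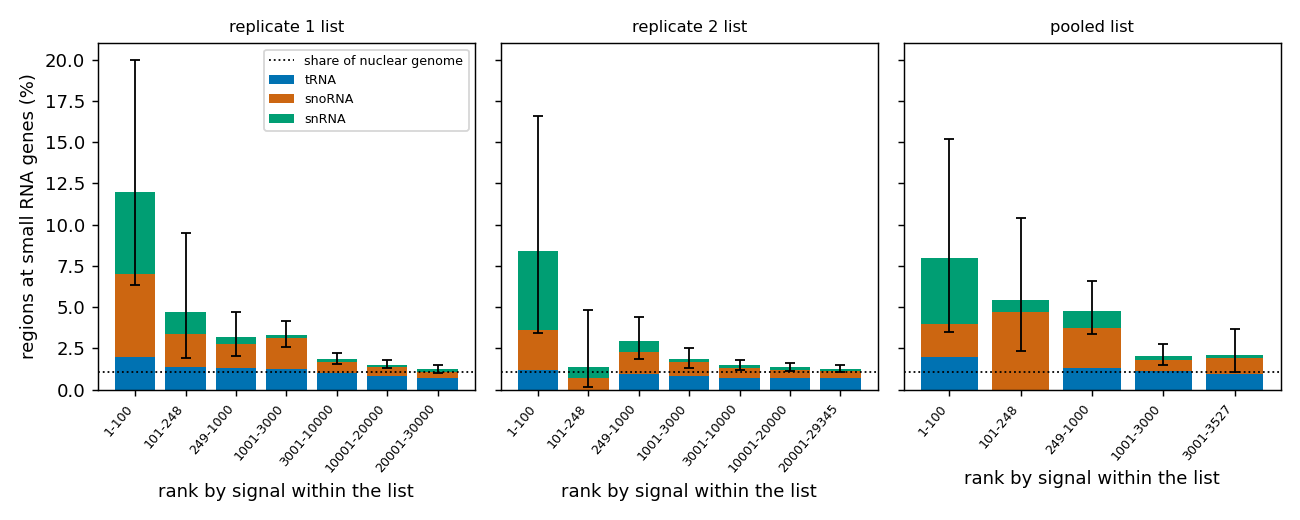
Share of regions at nuclear tRNA, snoRNA and snRNA genes (y axis, %) by rank of signal within each list (x axis). Bars stack the biotypes, whiskers are exact 95% intervals of the total, and the dotted line is the 1.08% of the nuclear genome that the windows cover. In each list the 100 highest regions have the tallest bar: 12% in replicate 1, 8.43% in replicate 2 and 8.0% in the pooled list.

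The share of regions found again was counted in each of the other lists. A region was matched when the nearest summit of the other list lay within 200 bp. Over all biotypes 133 of 513 regions (25.9%, 22.2 to 29.9) were matched to replicate 2, against 23.6% of all 30000 regions, so the interval includes the background. The pooled list matched 102 (19.9%, 16.5 to 23.6), against 10.5% of all regions. The IDR set matched 19 (3.70%, 2.24 to 5.72), against 0.900% of all regions, and these 19 fell on 16 peaks. The 3000 regions of highest signal in replicate 1 held 109 (21.2%, 17.8 to 25.0), against 10% of all regions. An authors' -log10 q-value of 2 or more was recorded for 21 (4.09%, 2.55 to 6.19), against 0.920% of all regions. The pooled list and the IDR set were made from the same replicates, so a match to them is in part built in. Such matches were more frequent at high signal, where members were more common. Of the 3000 highest regions of the whole list, the pooled list matched 48.2% and the IDR set 8.17%. How far the pooled and IDR contrasts with all regions follow from this was not tested.

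By biotype, the IDR set matched 6 of 53 snRNA regions (11.3%, 4.27 to 23.0), 10 of 196 snoRNA regions (5.10%, 2.47 to 9.18) and 3 of 264 tRNA regions (1.14%, 0.235 to 3.28). The tRNA interval includes the 0.900% of all regions, and the snRNA and snoRNA intervals lie above it. Replicate 2 matched 35.8% of the snRNA regions (23.1 to 50.2), 29.1% of the snoRNA regions (22.8 to 36.0) and 21.6% of the tRNA regions (16.8 to 27.0). All 3 intervals include the 23.6% of all regions.

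**Figure D2:**
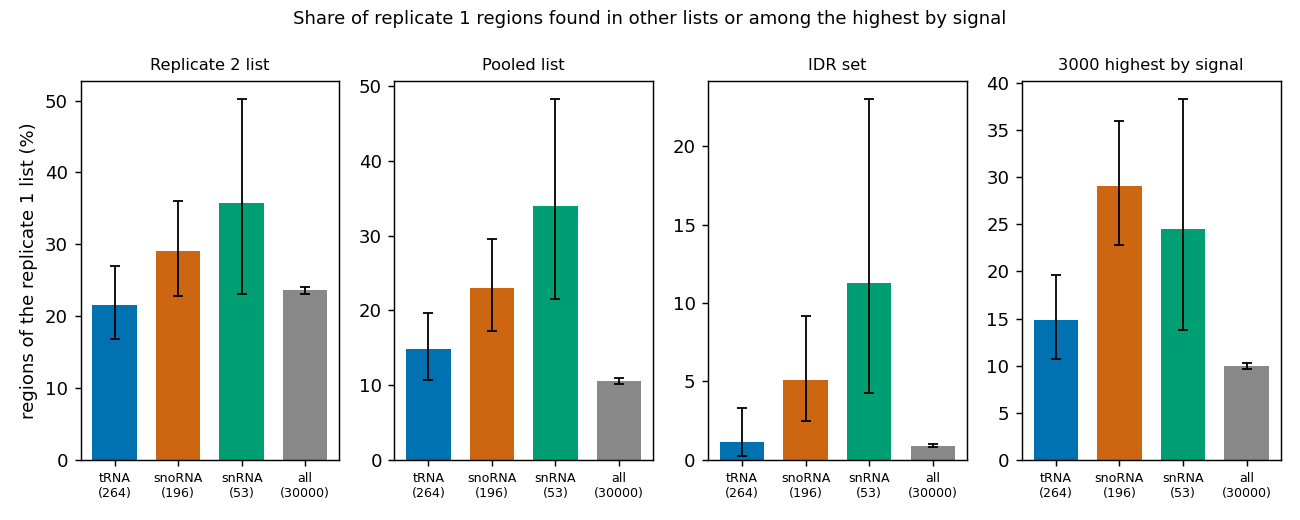
Share of replicate 1 regions (y axis, %) at tRNA, snoRNA and snRNA genes and among all 30000 regions that were matched to the replicate 2 list, the pooled list or the IDR set, or lay among the 3000 regions of highest signal; each panel has its own axis from 0. Whiskers are exact 95% intervals; in the IDR panel snRNA regions stand at 11.3%, snoRNA at 5.10%, tRNA at 1.14% and all regions at 0.900%.

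Promoters of protein-coding genes (1000 bp upstream to 200 bp downstream of a 5' end) held 172 of 513 members (33.5%, 29.5 to 37.8), against 30.1% of all regions. By biotype they held 43.4% of the snRNA regions (29.8 to 57.7), 39.8% of the snoRNA regions (32.9 to 47.0) and 26.9% of the tRNA regions (21.6 to 32.7). The snoRNA interval lies above the share of all regions, and the snRNA and tRNA intervals include it. Among regions in such promoters, the IDR set matched 6.98% of the members (3.66 to 11.9), against 1.50% of all. Outside promoters it matched 2.05% of the members (0.829 to 4.18), against 0.644% of all. Within the 3000 highest regions it matched 16.5% of the members (10.1 to 24.8), against 8.17% of all. For the match to replicate 2, a list called from the other library against the shared control, members and all regions lay closer together. That match was found for 33.1% of the members in promoters (26.2 to 40.7), against 27.6% of all, and for 22.3% of the members outside them (18 to 27.1), against 21.9% of all. Within the 3000 highest regions it was found for 45.9% of the members (36.3 to 55.7), against 43.7% of all. Each of these 3 intervals includes the share of all regions.

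The strongest snRNA-class region lay at an SL2 RNA gene. At sls-2.1 (chromosome II) the signal was 48.6 in replicate 1 and 48.5 in replicate 2, at ranks 13 and 25, and the IDR peak ranked 7 of 248. The replicate 1 summit lay 14 bp upstream of the leader's first base, inside the printed 17-base stretch. In replicate 2 the summit lay 28 bp upstream of that base, outside the stretch. In the pooled list and the IDR set it lay 11 bp downstream of that base. A second replicate 1 region, 203 bp downstream of that base, ranked 88. Both replicate 1 regions also lay in the promoter of H41C03.3. The first of them ranked highest of the members in replicate 1, and its values were high in both replicates.

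The other SL2 RNA genes with an IDR peak followed. At sls-2.4 (chromosome I) the replicate 1 region had a signal of 25.7 at rank 68, and the replicate 2 region matched to it had 14.0 at rank 971. Another replicate 2 region, with its summit 143 bp downstream of the leader's first base against 246 bp for the replicate 1 summit, had 53.5 at rank 18, and the IDR peak ranked 36. The sls-2.8 gene (chromosome III) had 24.3 and 21.7 in replicates 1 and 2, at ranks 87 and 152, with an IDR rank of 71. Its replicate 1 summit lay 39 bp past the end of the gene and 46 bp upstream of a Y75B8A.23 5' end. That summit was in the promoters of Y75B8A.23 and tim-1, and the replicate 1 summit at sls-2.4 was in the promoter of egg-5. The sls-2.2 and sls-2.3 genes lie tail to tail on chromosome II and share an IDR peak of rank 57. Near sls-2.2 the signal was 17.2 in replicate 1, with the summit 144 bp downstream of the leader's first base, and 34.3 in replicate 2. The region directly upstream of sls-2.3, with its summit 25 bp before the leader, had a signal of 22.5 in replicate 1 and no match in replicate 2 within 200 bp. Among the sls-2 regions of replicate 1 and their matches in replicate 2, sls-2.1 was the highest in both lists.

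Across the family, 10 of 18 sls-2 genes had a region in replicate 1, 12 in replicate 2 and 9 in both, while 5 had none in either list. These 5 were sls-2.5, sls-2.11, sls-2.12, sls-2.14 and sls-2.15. A gene in both lists need not have matched summits, and genes can share a region. In replicate 1 sls-2.18 was counted through the region of sls-2.16, and in replicate 2 sls-2.3 through that of sls-2.2. At sls-2.9 the replicate 1 summit lay 474 bp upstream of the leader's first base, and the highest replicate 2 summit 360 bp downstream of it. An IDR peak lay at 5 of the 18 genes, from 4 peaks. The 12 sls-1 genes, which encode the SL1 RNA, had no region in any of the 4 lists. Another annotated gene of identical sequence exists for 0 of the 18 sls-2 genes and for all 12 sls-1 genes. How reads that fit several places were treated is not given in the sources used here, and its part in this contrast was not tested. The sls-2 and sls-1 genes were singled out after their values were seen.

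**Figure D3:**
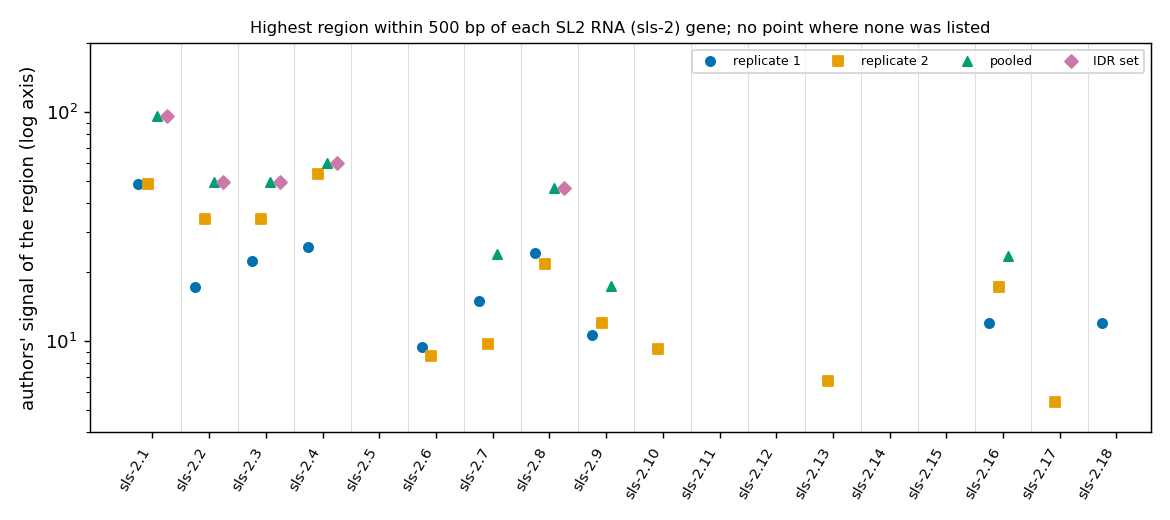
Authors' signal (y axis, log scale) of the highest region within 500 bp of each of the 18 SL2 RNA genes (x axis) in the replicate 1, replicate 2, pooled and IDR lists; a gene with no point had no region. The genes sls-2.1 to sls-2.4 and sls-2.8 carry an IDR peak, and sls-2.5, sls-2.11, sls-2.12, sls-2.14 and sls-2.15 carry no point. Signals of different lists are not on a common scale, and points of 1 gene can come from different summits, as at sls-2.4.

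Of the 11 regions nearest to an sls-2 gene, 9 were matched to replicate 2, 8 to the pooled list and 5 to the IDR set. Of the 42 other snRNA regions, 10 were matched to replicate 2, 10 to the pooled list and 1 to the IDR set. Of all regions, 23.6%, 10.5% and 0.900% were matched to these 3 lists. The replicate 2 share of the 42 other snRNA regions was thus near the background. The density of replicate 1 regions was 64.7 per 100 kb around sls-2 genes, against 36.8 around the other 111 snRNA genes. In the IDR set it was 21.6 per 100 kb around sls-2 genes, against 0.856 around the others. The snRNA regions matched to the IDR set therefore lay mainly beside spliced leader genes. The replicate 1 summits at sls-2.1, sls-2.4 and sls-2.8 also lay in promoters of protein-coding genes, and these data give no way to assign them.

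The 1 other snRNA region in the IDR set lay at sup-6, a U1 snRNA gene on chromosome II in an intron of F58G1.7. It had a signal of 27.3 in replicate 1 and 9.41 in replicate 2, at ranks 59 and 5875, and an IDR rank of 202. The replicates stood far apart here, and of the 19 members matched to the IDR set sup-6 stood farthest down the replicate 2 list. Its second region, 16 bp upstream, had 17.9 and 6.81 in replicates 1 and 2. The last snRNA gene among the 8 highest regions was W05B2.8, in an intron of dhc-4 on chromosome III, with a signal of 18.8 in replicate 1 and no match in replicate 2.

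The strongest snoRNA region lay at K02F3.15 on chromosome III, in an intron of zip-2, which encodes a bZIP transcription factor. Its signal was 31.7 in replicate 1 and 26.1 in replicate 2, at ranks 43 and 92, and its summit lay 311 bp from the snoRNA gene and 168 bp upstream of a zip-2 5' end. ZK994.7, in an intron of pxn-1 (a peroxidasin of the extracellular matrix), had 26.9 and 15.9 in replicates 1 and 2, with the summit 70 bp upstream of the snoRNA. C04A2.16, in an intron of the chromatin regulator gene egl-27, had 25.1 and 16.6. Its summit lay 457 bp upstream of the snoRNA and 379 bp downstream of an egl-27 5' end. All 3 had an IDR peak, at ranks 55, 129 and 101, and all 3 ranked higher in replicate 1.

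Among the remaining snoRNA regions with the highest signal, W06H8.17 (chromosome V) had 23.3 and 13.8 in replicates 1 and 2, and its IDR rank was 68. C34E11.20 (chromosome X), whose AP-1 site is printed above, had 20.3 in replicate 1 and no match in replicate 2 or the IDR set. T06C12.16 (chromosome V) had 18.7 and 9.19 and no IDR peak. T21B4.20 (chromosome II), whose summit lay in the promoter of ceh-99 (a homeobox gene) and srh-70, had 17.4 and 18.3 and an IDR rank of 210. By rank, T21B4.20 stood at 299 and 280 in replicates 1 and 2, W06H8.17 at 98 and 1058 and T06C12.16 at 201 and 6371, so that the last 2 stood further down in replicate 2.

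Several snoRNA regions lay at ribosomal protein genes. At Y24D9A.9, hosted by rpl-7A, the summit lay 78 bp upstream of the gene's 5' end, with a signal of 24.3 in replicate 1 and 12.3 in replicate 2, at ranks 86 and 1862. At F54E7.10, hosted by rps-12, the signals were 22.1 and 13.8, at ranks 120 and 1090. That summit lay 112 bp upstream of a ska-3 5' end, in the promoters of rps-12 and ska-3. The region at C16A3.11 in rps-13 had 15.8 and 15.1, and that at F39B2.14, in the promoter of rps-26 and tmem-107, had 15 and 14.9. In all, 13 snoRNA regions were hosted by or lay in the promoter of 11 ribosomal protein genes. Of the 13, 5 were matched to the IDR set, against 0.900% of all regions and 6.98% of the members in promoters. Both regions at F39B2.14 matched the same IDR peak. Only genes with symbols starting rpl- or rps- were counted. That left out ubl-1 (3 members) and rla-1 (1 member), which had 0 members in the IDR set. This grouping was made after the values were seen. A summit in such a place can be counted for the host promoter and for the snoRNA, and these data give no way to assign it.

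The host gene's strand was read from the annotation. Of the 196 snoRNA regions, 102 belonged to a snoRNA inside a protein-coding gene on the same strand, 16 to one on the opposite strand and 78 to one outside such genes. The IDR set matched 8 of the 102, 0 of the 16 and 2 of the 78. It matched 5.10% of all snoRNA regions and 0.900% of all regions. These counts are small, and no test was made between host strands. Same-strand hosts held 52.9% of the 346 snoRNA genes and 52.0% of the snoRNA regions, and these shares are close.

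The strongest tRNA region lay on chromosome X beside C18A11.t2, a tRNA-Arg gene, with the summit 280 bp from the gene. Its signal was 36.3 in replicate 1 and 49.3 in replicate 2, at ranks 30 and 23, and its IDR peak ranked 17. A second region, 80 bp from the same gene, had a signal of 21.2 and matched the same replicate 2 and IDR peaks. R04A9.t1, a tRNA-Gln gene on chromosome X in an intron of ZK1193.2, had 23.5 and 18 in replicates 1 and 2, at ranks 96 and 302. Its summit lay 242 bp upstream of the tRNA and 206 bp upstream of a ZK1193.2 5' end. These 2 genes accounted for all 3 tRNA regions matched to the IDR set, and in neither did the summit fall in the tRNA gene.

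The next 5 genes had lower signals, and 3 of them had no match in replicate 2. F12D9.t2 (tRNA-Glu, X), the highest with its summit inside the tRNA gene, had 18.3 in replicate 1 and no match. C02B4.t1 (tRNA-Ile, X) had 17.8 and 9.85 in replicates 1 and 2. Y97E10C.t1 (tRNA-Thr, V) had 17.7 and F42A10.t2 (tRNA-Ser, III, in the promoter of nfm-1, a merlin homolog) had 16.7, both without a match. F22B7.t3 (tRNA-Phe, III) had 16.6 and 6.24. None of these 5 genes had an IDR match.

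**Figure D4:**
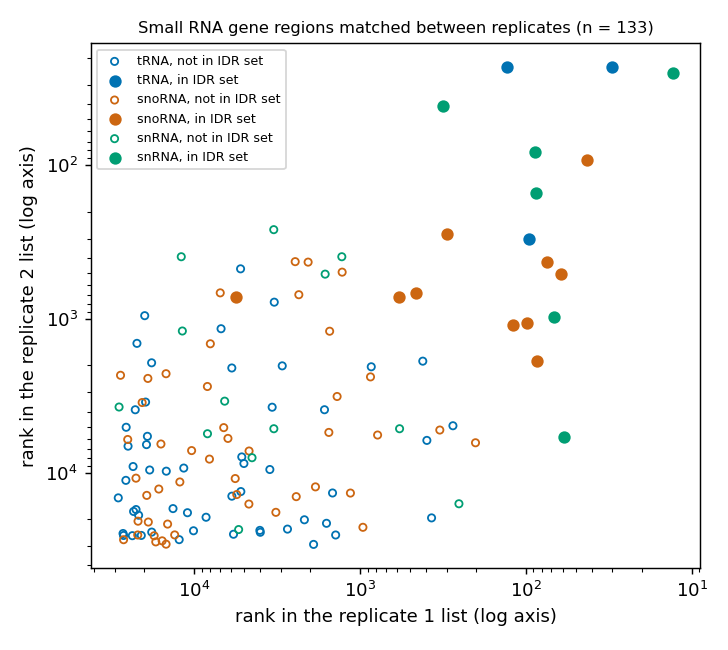
Rank in the replicate 1 list (x axis) against rank in the replicate 2 list (y axis) for the 133 small RNA gene regions matched between replicates; both axes are logarithmic and run towards rank 1. Filled points are the 19 regions matched to the IDR set, which lie towards the upper right apart from the second region of F39B2.14 (rank 5585 in replicate 1) and sup-6 (rank 5875 in replicate 2).

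On chromosome X lay 42.8% of the tRNA regions and 43.5% of the tRNA genes. Chromosome III held 14.4% of the tRNA regions and 10.1% of the tRNA genes, and chromosome IV 9.09% of the regions and 11.2% of the genes. The density was 46.3 regions per 100 kb around tRNA genes on X and 46.3 around those on autosomes. The pooled list matched 22 of 113 tRNA regions on X (19.5%, 12.6 to 28.0) and 17 of 151 on autosomes (11.3%, 6.70 to 17.4), and the intervals overlap. Of all regions it matched 11.3% on X and 10.4% on autosomes. The X interval lies above its background and the autosomal interval includes it. The IDR set matched 3 of the 113 on X (2.65%, 0.551 to 7.56). On autosomes it matched 0 of the 151, which allows a share of up to 2.41% (exact interval). Among all regions the IDR set matched 64 of 5312 on X and 206 of 24688 on autosomes. Each tRNA interval includes the share of all regions on the same chromosomes. These counts therefore show no difference between X and autosomes.

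By amino acid, 607 of 612 nuclear tRNA genes could be given an isotype from their product name. The share of genes with a region ran from 25.0% for tRNA-His and tRNA-Met (5 of 20 each) to 55.0% for tRNA-Asn (11 of 20). The single tRNA-Sec gene, which had none, was left aside. Of all 612 genes, 264 had a region. Counts per isotype are small, and no test was made between isotypes. The most regions, 24, lay at tRNA-Lys genes, of which 23 of 46 had one.

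Most tRNA genes have a twin. Another annotated gene of identical sequence was found for 469 of 612 nuclear tRNA genes (76.6%), for 44 of 129 snRNA genes and for none of 346 snoRNA genes. A region was found at 44.1% of the copied tRNA genes and at 39.9% of the 143 unique ones. The pooled list matched 14.8% of the tRNA regions at copied genes and 14.5% of those at unique genes. The genes C18A11.t2 and R04A9.t1 belong to groups of 10 and 15 identical genes, and their summits lay outside the copied sequence. The part of reads that fit several copies in any tRNA value was not tested.

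Around tRNA genes, summits were densest beside the gene itself. Per 100 tRNA genes, 8.50 summits fell in the 100 bp directly upstream of the 5' end and 6.37 in the first 100 bp downstream of it, against 2.99 at the density of the whole nuclear genome. Within 100 bp of the gene lay 116 of 264 tRNA regions (43.9%), where the genes and 100 bp to each side make up 25.6% of the window. For snRNA regions the values were 49.1% and 28.7%, and for snoRNA regions 36.7% and 29.6%. Over all members, 243 summits lay upstream, 63 inside and 207 downstream of the nearest gene, and the median distance was 145 bp. No test was made of the positions.

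**Figure D5:**
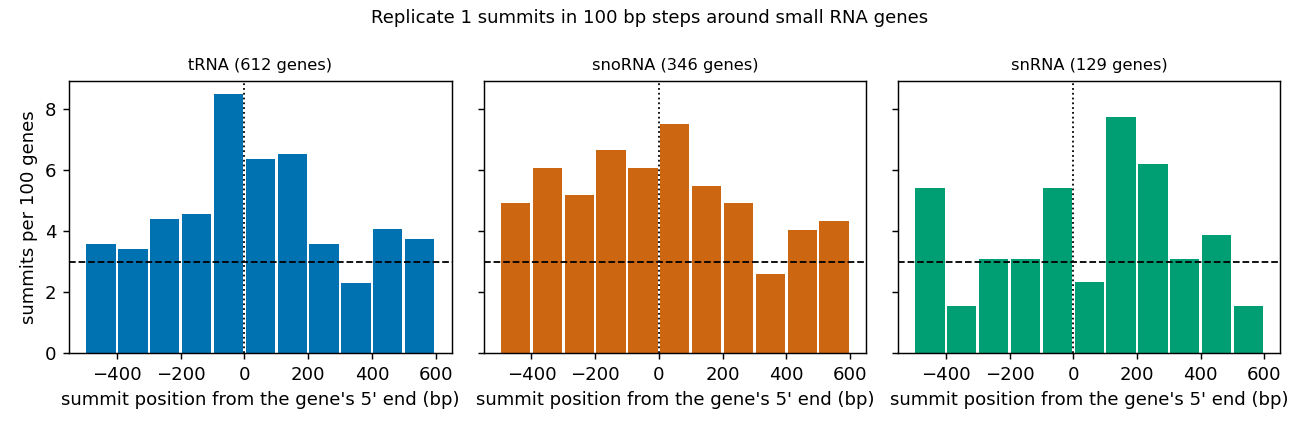
Replicate 1 summits per 100 genes (y axis) in 100 bp steps from the 5' end of tRNA, snoRNA and snRNA genes (x axis, bp, downstream positive). The dotted line is the 5' end and the dashed line is the 2.99 that the density of the whole genome gives; the tallest tRNA bar, 8.50, is the step directly upstream.

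The B box core GGTTCGA, part of the element that transcription factor IIIC binds in tRNA genes, was searched on both strands within 100 bp of each summit. It was found at 58 of 513 regions (11.3%, 8.70 to 14.4), against 1.68% of all regions. Of the 58, 52 were tRNA regions, which is 19.7% of the 264. All 52 came from the 116 tRNA regions within 100 bp of a gene, and 64.5% of the tRNA genes hold this core. The motif is part of the gene that defined the member, so its presence follows from the rule.

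The AP-1 site was found at 11 of 513 regions (2.14%, 1.08 to 3.80), against 2.10% of all regions, a share near the background. By biotype it was found at 6 of 196 snoRNA regions, 3 of 264 tRNA regions and 2 of 53 snRNA regions. None of the 19 regions matched to the IDR set held one. Apart from C34E11.20, the highest was at rte-4, a tRNA gene, at rank 1526. A match is a description of the letters only.

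Counted by gene, 472 of 1109 small RNA genes (42.6%, 39.6 to 45.5) had a replicate 1 region within 500 bp, mitochondrial genes included. By biotype these were 168 of 346 snoRNA genes (48.6%), 264 of 634 tRNA genes (41.6%) and 40 of 129 snRNA genes (31.0%). Protein-coding genes, which are longer (median 2026 bp, against 75 bp for small RNA genes), had a region in or within 500 bp in 64.5% of cases. Both replicates had a region at 219 small RNA genes, which is 46.4% of those with a replicate 1 region and 51.3% of the 427 with a replicate 2 region. For protein-coding genes these shares were 73.3% and 74.7%. The 427 include 18 mitochondrial tRNA genes, where replicate 1 had no region, and without them the 219 are 53.5% of 409.

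Neighbouring protein-coding genes rarely held more than a few members. In all, 339 genes hosted a small RNA gene with a region or had a member in their promoter, and 9 of them had 3 members. These were F22B7.9, mnk-1 (a kinase activated by MAP kinases), ubl-1 (a ubiquitin-like fusion with a ribosomal protein), F58D5.5, him-4 (hemicentin), hgo-1 (homogentisate oxidase), sulp-3 (a sulfate permease family member), C33A12.3 and ugt-37 (a UDP-glucuronosyltransferase). None of the 9 had a member in the IDR set. The highest signal among them was 16.6, at F22B7.9, and the lowest maximum was 5.43, at ugt-37. Regions share genes: 79 small RNA genes were nearest to 2 or more members, and 76 members had another region of the list within 250 bp.

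Genes for the proteins that make or hold these RNAs were counted by regions in their promoters. Of 78 cytosolic ribosomal protein genes (symbols starting rpl- or rps-), 51 had a replicate 1 region (65.4%) and 53 a replicate 2 region (67.9%). Of all protein-coding genes, 39.6% and 39.8% had one. The IDR set lay in the promoter of 9 of the 78 (11.5%), against 0.806% of protein-coding genes. The highest were rpl-3, rpl-20, rpl-15 and rpl-35, with replicate 1 signals of 65.9, 55.6, 50.9 and 33.5. None of these 4 regions was a member.

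The other lists were small. Of all protein-coding genes, 39.6% and 39.8% had a promoter region in replicates 1 and 2, and 0.806% an IDR peak. Of 13 genes for RNA polymerase III and its factors, 5 had a replicate 1 region (38.5%) and 4 a replicate 2 region (30.8%). None had an IDR peak, and the highest signal was 12.3, at the polymerase subunit gene rpac-19. Of 8 snoRNP protein genes, 5 and 4 had a region in replicates 1 and 2. The snoRNP gene nola-3 had a signal of 21.3 at rank 127 and an IDR peak, and was the highest of this list. Of 15 spliceosomal snRNP protein genes, 6 and 7 had a region in replicates 1 and 2 and none an IDR peak, with snr-3 (an Sm protein gene) the highest at 13.5. Of 4 genes for tRNA processing and ligation, 3 (75.0%) and 1 (25.0%) had a region in replicates 1 and 2. Their highest signal was 6.30, at hoe-1, a tRNA 3' processing enzyme. In all, 70 of 118 listed genes (59.3%) had a replicate 1 region, and 51 of the 70 were ribosomal protein genes.

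The edge of the 500 bp rule had no gap. The 3 members just inside it, at 497 to 499 bp, had signals of 6.26, 6.15 and 7.70. The 3 regions just outside, at 502 to 503 bp, had signals of 12.2, 8.31 and 7.80. Over all members the signal ran from 4.70 to 48.6 with a median of 7.29, against a median of 6.58 over all 30000 regions.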

How the data were processed

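The values are ChIP-seq peak lists of eGFP-FOS-1 in L4 larvae, made and deposited by the authors on build ce11. Per the file list deposited with the samples, the replicate lists hold peaks and background, called against a shared control alignment, and the pooled list and IDR set were made from both replicates. The signal of a region and its -log10 q-value are the authors' deposited values, with no scale given; the aligner, the caller, the IDR threshold and the treatment of reads that fit several places are not given in the sources used. Lists on build ce10 were not used.

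Gene positions and biotypes came from Ensembl release 115, and names, products and sequences from RefSeq (WBcel235). A summit within 500 bp of a tRNA, snoRNA or snRNA gene made a region a member, assigned to its nearest such gene, and summits of 2 lists within 200 bp were matched. Motifs were searched within 100 bp of the summit on both strands. A promoter was the stretch from 1000 bp before to 200 bp after a 5' end in the annotation. Exact 95% Clopper-Pearson intervals cover counting error only. Of the listed genes for RNA-processing and ribosomal proteins, 118 were matched by symbol or locus tag, and 1 (sap-1) had no match and was left out.

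Members and lists were chosen with earlier results of these data known. Named were the 8 members of highest replicate 1 signal per biotype, the 15 highest matched to the IDR set, neighbours with 3 or more members and up to 4 genes per list. Other features named were picked with their values in view. The alternatives were other windows, matching distances, motif windows and promoters, a stricter q-value and each replicate list alone, and, added after seeing the data, the nuclear regions of the replicate 2 list alone. Counting was tested on simulated data with planted members, matches and motifs. Python 3.11.15, numpy 2.4.6, pandas 2.3.3, scipy 1.17.1 and matplotlib 3.10.9 were used.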

Additional observations from a re-analysis of the deposited data

Results flagged for a closer look

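Outside the nuclear members, the replicate 2 list held 12 regions at mitochondrial tRNA genes, while the replicate 1 list held 0. They drew attention because all members are nuclear, and mitochondrial genes enter only the counts by gene and the counts from the whole replicate 2 list. They were among 18 regions of the replicate 2 list on mitochondrial DNA, had signals of 19.7 to 366 and included the highest-ranked region of that list. The pooled list held none. A region list gives no read counts, and no cause was tested.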

How the results depend on the processing

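Of 59 recomputed values, 32 stayed within the interval of the value reported (or within 1.5 times for the number of regions) and 27 did not. None changed sign, since none is signed. Among the 32 is the share of listed genes without replicate 2, which repeats the reported calculation and could not move. The number of regions was 341, 786 and 63 with summits within 250 bp, within 1000 bp and inside the gene, against 513 as reported, and 21 at a -log10 q of 2 or more. The share of small RNA genes with a region was 29.5%, 58.3% and 5.68% under those windows, and 1.62% at the stricter q. The B box share was 16.7%, 7.89% and 27.0% under them, 4.76% at the stricter q, and 4.68% and 21.4% within 50 and 200 bp of the summit; these shifts follow from how each window is built. With summits inside the gene the IDR match was 1.59% (1 of 63 regions) and the share among the 3000 highest regions 25.4%. Matching within 100 and 500 bp gave 18.3% and 45.0% for replicate 2. Among the 21 regions at the stricter q, replicate 2 matched 81.0%, the pooled list 100% and the IDR set 66.7%, and the AP-1 share was 4.76% (1 region). Listed genes with a promoter region made up 46.6% with promoters from 500 bp upstream to 100 bp downstream, and 8.47% with the IDR set.

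Leaving out replicate 2 leaves the replicate 1 list, so the listed genes stayed at the reported 59.3% by construction. Without replicate 1, that is with the replicate 2 list alone, the number of regions was 435 and the share of small RNA genes 38.5%. The pooled match was then 20.5%, the IDR match 4.60% and the share among the highest regions 18.4%. The AP-1 share was 1.38%, the B box share 9.89% and the share of listed genes 58.5%. These replicate 2 values include 12 regions at 18 mitochondrial tRNA genes. Without them, an alternative chosen after seeing the data, the number was 423, the share of nuclear small RNA genes 37.6%, the share among the highest regions 16.1%, the pooled match 21.0%, the IDR match 4.73%, the AP-1 share 1.42% and the B box share 10.2%. No paired analysis was possible because the study has 1 group. Depth is unknown, so a gene without a region is not shown to lack one at greater depth.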
